A study of Sorghum bicolor with 12 samples.

Results

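The 3 sorghum loci that the study lists as BRI, Sobic.001G403200, Sobic.008G006800 and Sobic.005G005700, were described from the deposited expression table. They were selected by locus name, and each had 1 transcript, so they make up 3 of the 47205 transcripts and 3 of the 34211 loci in the table. The RNA came from whole stem internodes of R.07020, a photoperiod-sensitive bioenergy sorghum inbred kept vegetative in a growth chamber under days of 14 h and harvested 60 days after planting. Int1 was the youngest internode below the shoot apex, Int2 and Int3 were the next internodes down the stem, and Int4 was the oldest and had finished expanding. All 4 groups shared the genotype, the growth conditions and the age of the plants, and the groups differed in position on the stem and thereby in stage of growth. Each group had 3 libraries, which the study describes as biological replicates from 3 plants, made from polyadenylated RNA.

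Brassinosteroids are plant steroid hormones that promote cell expansion and division and vascular differentiation. In Arabidopsis they bind BRI1, a receptor kinase of the plasma membrane with leucine-rich repeats outside the cell, which then acts with a co-receptor, BAK1, to switch off the kinase BIN2 and free the transcription factors BZR1 and BES1. Loss of BRI1 function gives dwarf plants in Arabidopsis, and loss of the corresponding receptor shortens the stem in rice and barley. The name BRI of the sorghum loci rests on their similarity to Arabidopsis BRI1 as the study gives it. No sequence was used here, so neither the name nor the likeness of the 3 loci to each other was checked.

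All 3 BRI transcripts were high in Int1 and Int2 and low in Int3 and Int4, and most of the fall lay between Int2 and Int3. Levels are given as RPKM, read numbers corrected for transcript length and library size, so that levels of different genes can be set side by side. Summed over the 3 loci, the level from Int1 to Int4 was 67.4 ± 6.68, 49.7 ± 7.28, 3.25 ± 1.11 and 1.61 ± 0.872 RPKM (mean ± SD, n = 3 for each). The study listed these loci among hormone genes that were differentially expressed in these same libraries, so their direction here is not independent evidence.

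The transcript of Sobic.008G006800 had 23.36, 26.85 and 27.99 RPKM in the libraries of Int1 (replicates 1, 2 and 3) and 15.96, 16.16 and 19.97 RPKM in those of Int2. In Int3 it had 1.43, 0.75 and 0.74 RPKM, and in Int4 0.18, 0.35 and 0.51 RPKM. The 4 internodes did not overlap for this locus, and their order was Int1, Int2, Int3 and Int4 from high to low. Its mean was 26.1 ± 2.41 RPKM in Int1 and 0.347 ± 0.165 RPKM in Int4 (SD, n = 3), a ratio of means of 75.2, the widest range of the 3 loci.

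The transcript of Sobic.005G005700 had 23.27, 27.48 and 30.61 RPKM in Int1 and 13.93, 15.79 and 20.14 RPKM in Int2. It had 1.89, 1.49 and 1 RPKM in Int3, and 0.73, 0.73 and 1.33 RPKM in Int4. Its Int3 and Int4 ranges overlapped, whereas Int1 lay above Int2 and Int2 above Int3 in every library. Its means were 27.1 ± 3.68, 16.6 ± 3.19, 1.46 ± 0.446 and 0.93 ± 0.346 RPKM from Int1 to Int4 (SD, n = 3), and Int1 exceeded Int4 by 29.2-fold.

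The transcript of Sobic.001G403200 had 13.33, 14.94 and 14.31 RPKM in Int1 and 14.42, 14.92 and 17.9 RPKM in Int2. It had 1.2, 0.53 and 0.71 RPKM in Int3, and 0.06, 0.17 and 0.76 RPKM in Int4. For this locus Int1 overlapped Int2 and Int3 overlapped Int4, so the libraries fell into a high pair and a low pair of internodes. Its means were 14.2 ± 0.811, 15.7 ± 1.88, 0.813 ± 0.347 and 0.33 ± 0.376 RPKM from Int1 to Int4 (SD, n = 3), and Int1 exceeded Int4 by 43.0-fold.

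**Figure D1:**
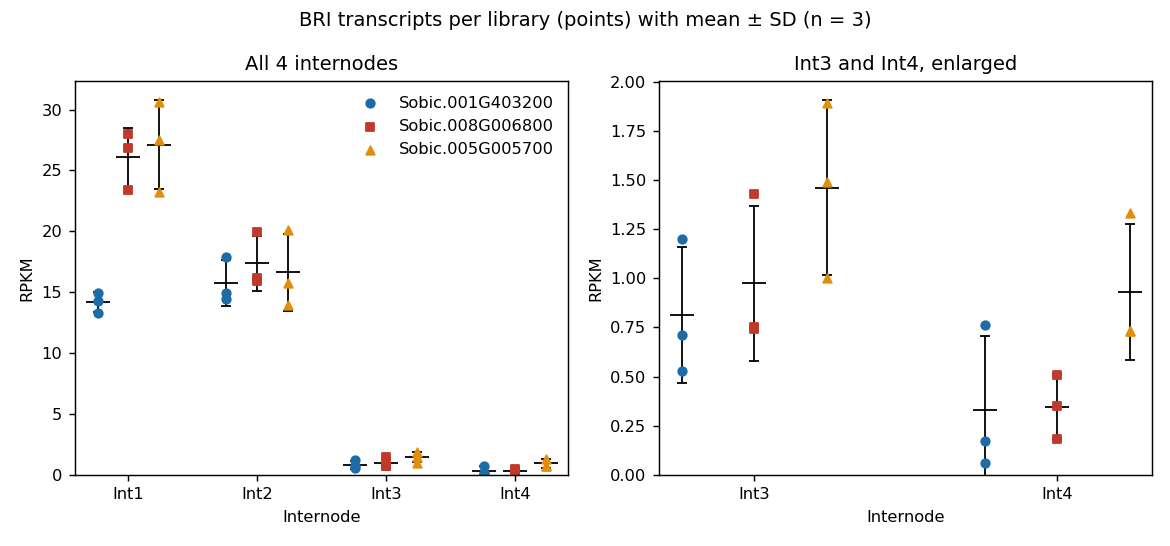
RPKM of the 3 BRI transcripts in each library (points, 3 per internode) with the mean and SD (black), for all internodes (left) and for Int3 and Int4 on an enlarged axis (right). Values reach 30.6 RPKM in Int1 and stay at or below 1.89 RPKM in Int3 and Int4; the lower SD bar of Sobic.001G403200 in Int4 is cut at 0.

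Relative to the rest of the transcriptome, the loci moved from the upper to the middle ranks. In Int1 the means of Sobic.005G005700, Sobic.008G006800 and Sobic.001G403200 exceeded those of 91.1%, 90.7% and 83.6% of the 47205 transcripts, many of which were listed at or near 0. In Int4 the same loci exceeded 51.0%, 39.1% and 38.6% of them. None of the 3 was listed at 0 in any library, although the lowest value, 0.06 RPKM for Sobic.001G403200 in Int4, may stand for very few reads. The table holds no counts or transcript lengths, so the number of reads behind a value is unknown and no counting interval was given.

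The comparison of the 2 older with the 2 younger internodes addressed which genes change as internodes pass from early growth to full length. The 26320 transcripts with a mean of at least 1 RPKM in some internode, which include all 3 BRI transcripts, were tested with limma on log2(RPKM + 0.5). A call required a Benjamini-Hochberg adjusted p below 0.001, a log2 fold change of 1 or more in size, and 2 RPKM or more as the mean of an internode compared. All 3 BRI transcripts were called lower in Int3/4, where 10.4% of all tested transcripts were. The log2 fold change was -4.31 (SE 0.15, limma adjusted p = 1.52e-09) for Sobic.008G006800, -3.95 (SE 0.20, limma adjusted p = 1.21e-08) for Sobic.001G403200 and -3.71 (SE 0.16, limma adjusted p = 4.36e-09) for Sobic.005G005700. The median over all tested transcripts was -0.13, and scaling each library by its median ratio changed the share of calls that were higher from 51.6% to 61.7%. On this scale the added 0.5 understates the change of genes with low values, and the ratios of mean RPKM were 32.9, 26.2 and 18.3 for Sobic.008G006800, Sobic.001G403200 and Sobic.005G005700. The model treated the 12 libraries as independent, although 4 internodes came from each of 3 plants. In whole internodes, fewer cells of a type that uses these genes and less RNA per cell cannot be told apart.

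The step from Int2 to Int3 held 86.3% of the log2 fall from Int1 to Int4 in Sobic.001G403200, 73.1% in Sobic.005G005700 and 72.7% in Sobic.008G006800. The lowest Int2 library stood above the highest Int3 library by 12-fold for Sobic.001G403200, 11.2-fold for Sobic.008G006800 and 7.37-fold for Sobic.005G005700. All 3 transcripts were called lower in Int3 than in Int2, where 4.32% of the tested transcripts were. The log2 fold changes were -3.65 (SE 0.28, limma adjusted p = 4.19e-06) for Sobic.001G403200, -3.62 (SE 0.21, limma adjusted p = 1.66e-06) for Sobic.008G006800 and -3.14 (SE 0.22, limma adjusted p = 2.79e-06) for Sobic.005G005700. Ordered by the size of the fall over this step, Sobic.001G403200 was number 6, Sobic.008G006800 number 7 and Sobic.005G005700 number 42 of the 26320 tested transcripts. These places describe the falls and carry no test, since the study drew the loci from the genes that changed. With only the libraries of Int2 and Int3 and the replicate number as a block, the log2 values were the same, but the limma adjusted p was 0.00254, 0.00254 and 0.00267 for Sobic.001G403200, Sobic.008G006800 and Sobic.005G005700. No BRI call was then made, and limma called 0 of the 24683 transcripts tested in that fit, of which 10608 had an unadjusted p under 0.05. In the fit over 12 libraries, all 3 transcripts were among 1036 (3.94% of those tested) that were called lower over this step and not called in the steps before and after it. The BRI transcripts could not be called in the step after, because their Int3 and Int4 means were under 2 RPKM. Their place in this class therefore does not show that the fall was confined to this step.

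**Figure D2:**
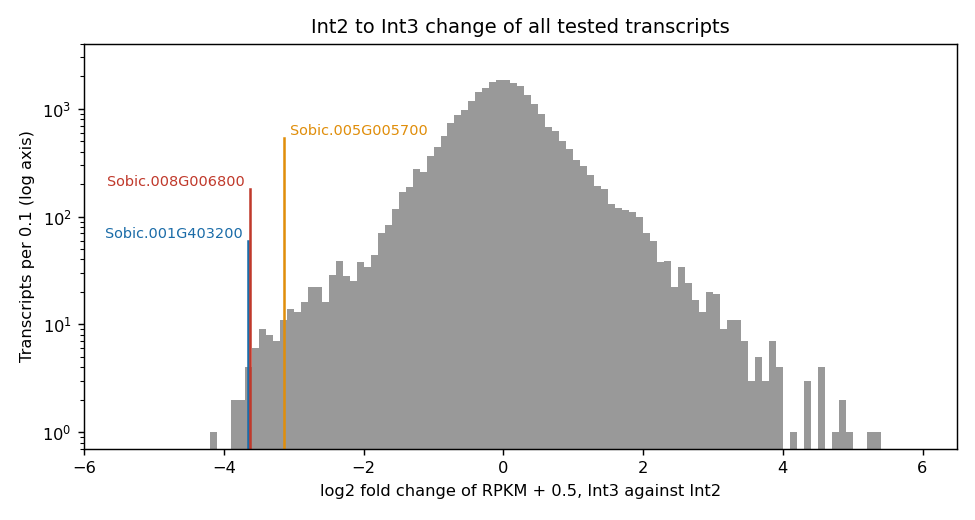
Number of transcripts (log axis) per 0.1 of log2 fold change of RPKM + 0.5 between Int2 and Int3, for all 26320 tested transcripts, with the 3 BRI transcripts as coloured lines whose height has no meaning. The BRI transcripts, at -3.65, -3.62 and -3.14, sit in the far left tail, while the median of all tested transcripts was -0.01.

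Between Int1 and Int2 no BRI transcript was called. The exact permutation test of the ratios between loci cannot go below p = 0.1 with 3 libraries against 3. It could therefore not decide whether the loci differed over this step. Sobic.008G006800 and Sobic.005G005700 had lower means in Int2, by a log2 fold change of -0.58 (SE 0.21, limma adjusted p = 0.0888) and -0.70 (SE 0.22, limma adjusted p = 0.0588), whereas Sobic.001G403200 had a value of 0.14 (95% interval -0.47 to 0.75, limma adjusted p = 0.768). A fit on the Int1 and Int2 libraries alone, with the replicate number as a block, was chosen after seeing the data. It gave the same log2 values. The limma adjusted p was then 0.00967 for Sobic.008G006800, 0.00591 for Sobic.005G005700 and 0.316 for Sobic.001G403200, none below 0.001. In the fit over 12 libraries, none of the 3 was called by limma, where 0.475% of the tested transcripts were called in either direction. An unadjusted p under 0.05 was reached by 2 of the 3, and by 7902 of the 26320 tested transcripts, so it was common in this step. The intervals of Sobic.008G006800 (-1.03 to -0.12) and Sobic.005G005700 (-1.18 to -0.22) in that fit excluded 0 before adjustment, and their Int1 and Int2 libraries did not overlap. How many of all tested transcripts had no such overlap was not counted.

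Between Int3 and Int4 the means were again lower in the older internode, but no call could be made because each mean was under 2 RPKM in both. The log2 changes and the adjusted p also missed their thresholds. Without the added 0.5, Int3 exceeded Int4 by a ratio of means of 2.81 for Sobic.008G006800, 2.46 for Sobic.001G403200 and 1.57 for Sobic.005G005700. Here 4.1% of the tested transcripts were called in either direction. The log2 fold change was -0.79 (SE 0.21, limma adjusted p = 0.0155) for Sobic.008G006800, -0.72 (SE 0.28, limma adjusted p = 0.0751) for Sobic.001G403200 and -0.46 (SE 0.22, limma adjusted p = 0.152) for Sobic.005G005700. Only Sobic.008G006800 of the 3 had separate ranges in these internodes, with 0.74 RPKM as the lowest Int3 library and 0.51 RPKM as the highest Int4 library.

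The wider pairs of internodes all gave calls. Across the whole series of positions, from Int1 to Int4, the log2 fold change was -4.99 (SE 0.21) for Sobic.008G006800, -4.29 (SE 0.22) for Sobic.005G005700 and -4.24 (SE 0.28) for Sobic.001G403200, all 3 called lower where 14.2% of the tested transcripts were. All 3 were also called lower in Int3 than in Int1, with 9.27% of the tested transcripts, and in Int4 than in Int2, with 9.41% of them. Median-ratio scaling changed the share of higher calls from 46.6% to 61.4% for Int4 against Int1, from 51.6% to 62.3% for Int4 against Int2 and from 60.7% to 72.7% for Int4 against Int3. These comparisons share libraries with each other and with the step from Int2 to Int3.

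**Figure D3:**
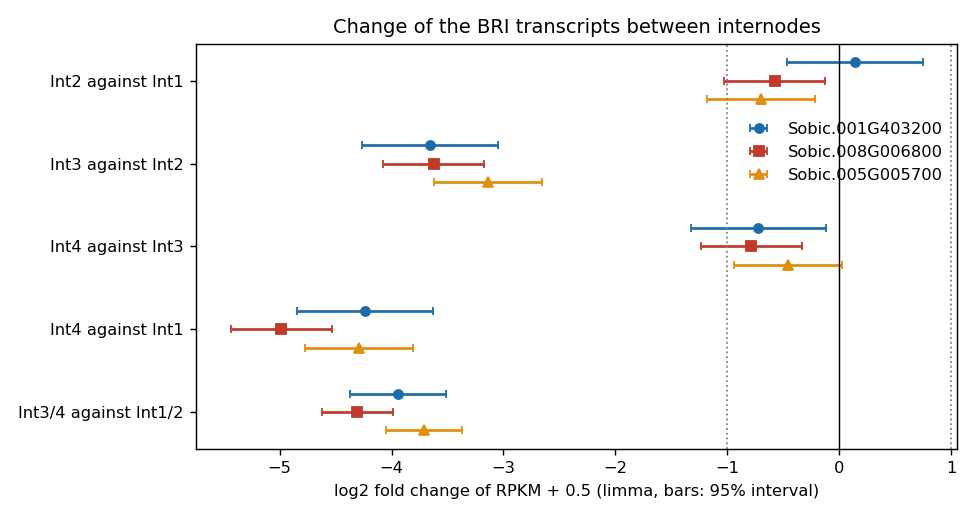
Log2 fold change of RPKM + 0.5 (limma) of the 3 BRI transcripts for 3 neighbouring steps, for Int4 against Int1 and for Int3/4 against Int1/2; bars are 95% intervals and dotted lines mark a change of 1. All 3 estimates for Int3 against Int2 lie at or below -3.14, and no estimate for the steps before and after lies below -0.79.

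The order of the loci by level also depended on the internode. In Int1, Sobic.001G403200 was lowest in all 3 libraries and did not overlap the others, which stood 1.84-fold (Sobic.008G006800) and 1.91-fold (Sobic.005G005700) above it. In Int2 the 3 loci overlapped and their means lay between 15.7 and 17.4 RPKM. In Int3 all ranges overlapped, with Sobic.005G005700 highest in each of the 3 libraries. In Int4, Sobic.005G005700 was again highest in all 3 libraries, 2.68-fold above Sobic.008G006800 without overlap and 2.82-fold above Sobic.001G403200 with overlap.

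As a share of the summed RPKM of the 3 loci, Sobic.005G005700 took 40.2% ± 1.64, 33.3% ± 1.68, 45.5% ± 7.22 and 61.6% ± 12.4 from Int1 to Int4 (SD, n = 3). Sobic.008G006800 took 38.7% ± 0.289, 35.0% ± 0.905, 29.6% ± 2.33 and 22.1% ± 5.17 in the same order. Sobic.001G403200 took 21.1% ± 1.35 in Int1 and 31.7% ± 0.847 in Int2, where its share was highest, then 24.9% ± 5.13 in Int3 and 16.3% ± 11.76 in Int4. The low levels of Int3 and Int4 gave shares that varied more between libraries.

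Whether the loci changed by different amounts was tested on the log2 ratio of RPKM + 0.5 between pairs of loci within each library, in 6 tests adjusted together. The ratio of Sobic.008G006800 to Sobic.005G005700 was between -0.13 and 0.19 in the 6 libraries of Int1 and Int2 and between -0.86 and -0.27 in the 6 libraries of Int3 and Int4. Its mean was lower by a log2 difference of -0.59 in Int3/4 (2-sided exact permutation test, p = 0.00216, the smallest that 6 against 6 libraries can give, adjusted p = 0.0130). On this scale Sobic.008G006800 thus fell further than Sobic.005G005700 in these libraries. The test treated the libraries as independent, although each plant gave libraries to both sides. The values of both loci in Int3 and Int4 were at or below 1.89 RPKM. The same test gave no difference past 0.05 for Sobic.001G403200 against Sobic.008G006800 (0.36, exact permutation p = 0.108, adjusted p = 0.162) or against Sobic.005G005700 (-0.23, exact permutation p = 0.333, adjusted p = 0.333).

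From Int1 to Int2, the log2 ratio of Sobic.001G403200 to Sobic.008G006800 went from -0.85 ± 0.08 to -0.14 ± 0.02 (SD, n = 3), and that to Sobic.005G005700 from -0.90 ± 0.15 to -0.07 ± 0.11. The libraries of Int1 and Int2 did not overlap in either ratio. With 3 libraries against 3 the exact permutation test cannot go below p = 0.1, the value it gave for both ratios (adjusted p = 0.162), so this difference did not pass the test. The ratio of Sobic.008G006800 to Sobic.005G005700 differed by 0.12 between these internodes (exact permutation p = 0.2, adjusted p = 0.24).

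**Figure D4:**
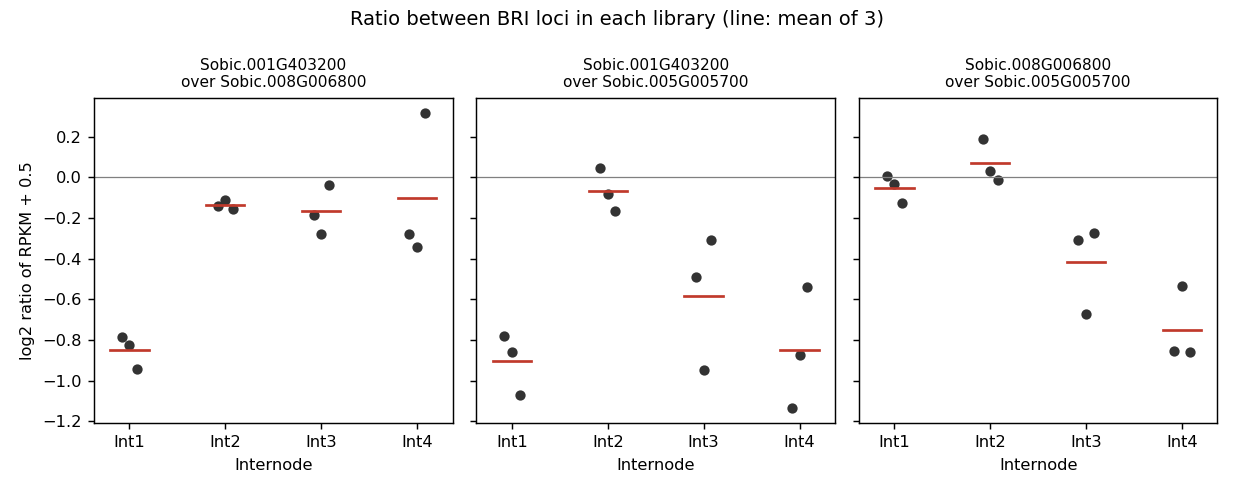
Log2 ratio of RPKM + 0.5 between pairs of BRI loci in each library (points, 3 per internode) with the mean of 3 (line). In the right panel all 6 libraries of Int3 and Int4 lie at or below -0.27 and all 6 of Int1 and Int2 at or above -0.13, while in the left and middle panels Int1 lies apart from Int2.

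Libraries of 1 internode that were high for 1 BRI locus tended to be high for the others. Int2 replicate 3, Int3 replicate 1 and Int4 replicate 3 had the highest value of their internode for all 3 loci. After the mean of each internode was taken off, the deviations of the 12 libraries correlated with r = 0.86 between Sobic.001G403200 and Sobic.008G006800, 0.76 between Sobic.001G403200 and Sobic.005G005700, and 0.84 between Sobic.008G006800 and Sobic.005G005700, as a description of libraries that the loci share. On the first principal component of all other transcripts, which held 73.4% of the variance and ran from Int1 to Int4, Int3 replicate 1 scored 1190 against 1845 and 2309 for the other libraries of Int3. Int4 replicate 3 scored 3139 against 4626 and 4238, so both libraries lay nearer to the younger internodes than the rest of their groups. Library depth relative to Int1 replicate 1, estimated from the spacing of low RPKM values, was 0.834 in Int3 replicate 1 and 1.05 in Int4 replicate 3, the lowest and the highest of the 12 libraries. The part of stage or depth in these deviations was not tested. Without both libraries all 3 loci were still called lower in Int3/4 and from Int2 to Int3.

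The transcripts of other loci most like each BRI transcript were named by Pearson's r of log2(RPKM + 0.5) over the 12 libraries, as a description. For Sobic.001G403200 the nearest was Sobic.007G112100.1 (r = 0.998), annotated by the study as similar to the Arabidopsis enoyl-ACP reductase, an enzyme of fatty acid synthesis in plastids. It had 76.0, 76.4, 20.9 and 15.7 RPKM from Int1 to Int4, so it had the flat start of Sobic.001G403200 but a smaller fall. The next were Sobic.004G271500.3, Sobic.002G293800.1, Sobic.007G100600.1 and Sobic.004G271500.1, with r between 0.994 and 0.995, for which no annotation was used.

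For Sobic.008G006800 the nearest was Sobic.003G048500.2 (r = 0.997), annotated as an alpha/beta-hydrolase with carboxylesterase activity, which had 154.7, 111.6, 20.6 and 13.5 RPKM from Int1 to Int4. Sobic.008G000800.1, Sobic.004G227000.1, Sobic.006G069500.1 and Sobic.003G013800.1 followed. For Sobic.005G005700 the nearest was Sobic.006G069500.1 (r = 0.998), followed by Sobic.007G154500.1, Sobic.003G200501.1, Sobic.001G170800.1 and Sobic.001G530800.1. Sobic.006G069500.1 was thus among the 5 nearest of both loci, with 10.5, 6.60, 0.477 and 0.177 RPKM from Int1 to Int4. A high r was common, since the internodes themselves differ widely: 1091, 1547 and 1688 transcripts reached r = 0.95 with Sobic.001G403200, Sobic.008G006800 and Sobic.005G005700. The BRI loci were not each other's nearest, and the choice of the 5 nearest changed with the pseudocount and with the rank correlation.

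Of the transcripts that the study placed in functional categories, only 770 were used here, so other categorised transcripts may lie nearer. Among these 770, Sobic.007G112100.1 and Sobic.003G048500.2 had r between 0.987 and 0.998 with the 3 BRI loci. A further transcript close to all 3 was picked after its values were seen. Sobic.001G112800.2, which the study lists as similar to Arabidopsis RLP29, a receptor-like protein with leucine-rich repeats, had r = 0.996 with Sobic.005G005700, 0.993 with Sobic.008G006800 and 0.984 with Sobic.001G403200. Its means from Int1 to Int4 were 17.7, 12.9, 0.82 and 0.703 RPKM, close to the levels of the BRI transcripts.

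Genes for cell wall loosening and for methylsterol monooxygenase, a sterol enzyme, were taken from the study's functional categories of changed transcripts. They did not all move with the BRI transcripts. Expansins loosen walls during growth, and of 22 expansin transcripts 13 rose and 4 fell in Int3/4 against Int1/2, with a median log2 fold change of 1.62 beside -0.13 for all tested transcripts, of which 11.1% were called higher and 10.4% lower. Sobic.003G338801.1, which had the highest mean of any expansin in a single internode, rose from 16.6 ± 4.66 RPKM in Int1 to 172.1 ± 10.96 in Int4 (SD, n = 3; log2 fold change of Int3/4 against Int1/2 2.41). Sobic.001G033300.1, picked after its values were seen, was more abundant than it in the 3 younger internodes and had 112.2, 81.8, 56.3 and 43.5 RPKM from Int1 to Int4, with a log2 fold change of -0.94, below the size needed for a call. The largest changes were rises, of 3.85 for Sobic.001G300700.1, 3.84 for Sobic.001G300800.2 and 3.62 for Sobic.001G300500.1 on the log2 scale. Because the categories hold only transcripts that the study found changed, the counts are not independent evidence of direction.

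Xyloglucan endotransglucosylase/hydrolases (XTH) cut and rejoin wall xyloglucan, and their 17 transcripts were divided, with 6 higher, 8 lower and 3 not called in Int3/4, beside 11.1% higher and 10.4% lower of all tested transcripts, and a median log2 fold change of -0.38. Sobic.006G228100.1 fell from 266.7 ± 25.2 RPKM in Int1 to 3.39 ± 2.97 in Int4 (SD, n = 3; log2 fold change of Int3/4 against Int1/2 -4.62), and Sobic.002G194500.1 from 105.8 ± 5.09 to 3.6 ± 5.01 (-4.04). Sobic.001G538000.1 rose from 0.107 ± 0.065 RPKM in Int1 to 33.9 ± 8.39 in Int4 (3.97). The most abundant XTH, Sobic.010G246700.1, had 393.6, 771.1, 1021 and 594.8 RPKM from Int1 to Int4 and was not called. Over the step from Int2 to Int3, no XTH and no expansin transcript fell by as much as Sobic.005G005700, the BRI transcript with the smallest fall. The lowest log2 values were -2.88 for XTH and -1.59 for expansins. Only 42 of the 26320 tested transcripts (0.16%) fell by as much, so the lack of one in short lists says little. Of the categories described below, cellulose synthases and cell wall proteins with leucine-rich repeats each held 1 such transcript (-3.38 and -3.36).

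Methylsterol monooxygenases remove methyl groups from sterol precursors, upstream of brassinosteroid synthesis, and 3 of their transcripts were in the categories. Sobic.001G309200.1 fell from 54.8 ± 5.80 RPKM in Int1 to 25.4 ± 1.85 in Int4 (SD, n = 3; log2 fold change of Int3/4 against Int1/2 -1.00), at the threshold of the call. The other 2, both of Sobic.003G173700, were listed at 0 in every library of Int1 and Int2, had means of 2.16 and 2.17 RPKM in Int4, and were called higher, where 11.1% of all tested transcripts were. Both calls were lost without Int4 replicate 2 and with a pseudocount of 1, and 1 of them without Int4 replicate 1. That of Sobic.001G309200.1 was lost without Int1 replicate 2, Int1 replicate 3, Int2 replicate 1, Int3 replicate 3 or Int4 replicate 1, where the count of lower transcripts was 0.

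Further categories were added after the values were seen. They too hold only transcripts that the study found changed, so their counts are not independent evidence of direction. Summed over 16 cellulose synthase transcripts, the level rose from 803.7 to 859.6 RPKM per library in Int1 to 2233 to 3029 RPKM in Int4, opposite to the BRI loci; 7 of the 16 were called higher and 2 lower in Int3/4, beside 11.1% and 10.4% of all tested transcripts. One of the 2, Sobic.008G125700.1, similar to a cellulose synthase-like gene of Arabidopsis, fell with the BRI transcripts, from 35.4 ± 7.42 RPKM in Int1 to 0.49 ± 0.531 in Int4 (SD, n = 3; log2 fold change -4.34). Of 10 transcripts for cell wall proteins with leucine-rich repeats, 7 were called lower and 3 higher, beside 10.4% and 11.1% of all tested transcripts. This is the category of Sobic.001G112800.2, with a median log2 fold change of -1.49 beside -0.13 for all tested transcripts. That transcript had the largest change of the 10 (-3.64). The next largest were rises, of 3.51 for Sobic.001G159900.1 and 3.08 for Sobic.001G058300.1. The summed level of the 10 was 514.3 ± 39.1 RPKM in Int1 and 181.7 ± 6.11 RPKM in Int4 (SD, n = 3), so this sum moved in the direction of the BRI loci. Much of the sum in Int1 came from the most abundant of the 10, Sobic.004G215000.1. That transcript had 354.6, 351.2, 243.7 and 54.1 RPKM from Int1 to Int4, so it fell mainly after Int3, unlike the BRI transcripts. Of 12 photosystem and light reaction transcripts, 4 were called higher and 2 lower, beside 11.1% and 10.4% of all tested transcripts. Their sum lay between 149.3 and 160.8 RPKM in Int1 and between 169.2 and 208.3 RPKM in Int4. The part of a changing mix of cells in the fall of the BRI transcripts was not tested.

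Loci next to the BRI loci in the locus numbering did not share the size of the fall. Among the 5 loci on either side, the log2 fold change in Int3/4 against Int1/2 ran from -1.37 to 2.34 for the 6 tested neighbours of Sobic.001G403200, of which 1 was called lower and 2 higher, where 10.4% and 11.1% of all tested transcripts were. It ran from -1.28 to -0.28 for the 4 tested neighbours of Sobic.008G006800, with 1 called lower and 0 higher by limma, all 4 values being below 0. It ran from -0.78 to 1.24 for the 5 tested neighbours of Sobic.005G005700, with 0 called lower and 1 higher. The other neighbours were under the filter of 1 RPKM. The place in the numbering is that of the locus names, and no coordinates were used.

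**Figure D5:**
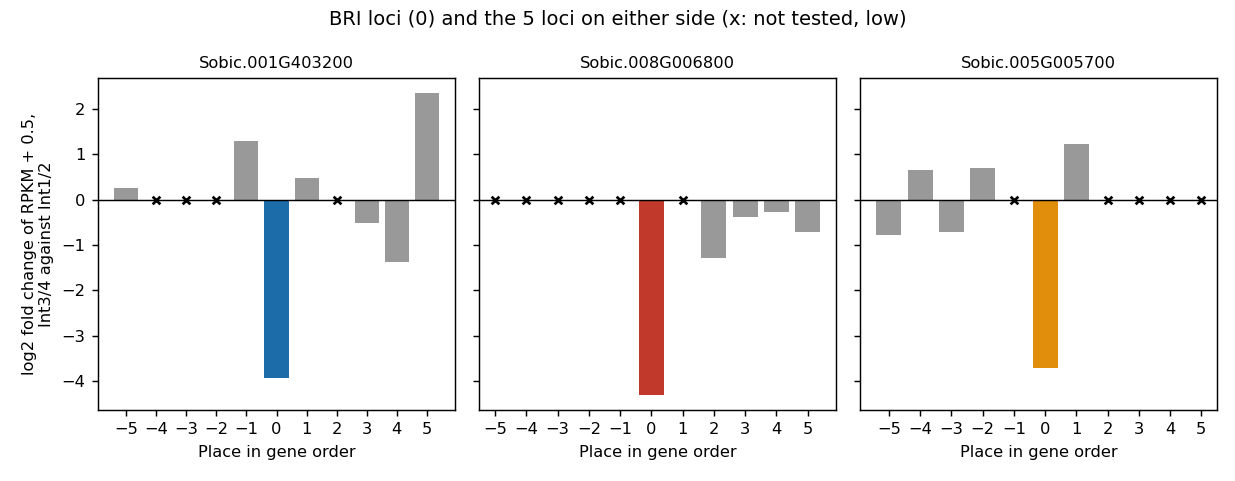
Log2 fold change of RPKM + 0.5 in Int3/4 against Int1/2 (limma) for each BRI locus (coloured bar at 0) and the tested loci among the 5 on either side by locus number (grey bars, most abundant transcript; crosses mark loci with a mean under 1 RPKM in every internode). The lowest neighbour is at -1.37, against -4.31 to -3.71 for the BRI loci.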

How the data were processed

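Single-end reads from 12 internode libraries of R.07020 were aligned by the authors in the CLC Genomics Workbench to sorghum v3.1 transcripts, and the authors deposited RPKM values with 2 decimals. Reads that fit several near-identical genes can be split among these, so levels of closely related loci are less certain. The authors tested counts with edgeR, which was not repeated because counts are not in the table used.

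Library depths relative to Int1 replicate 1 were 0.834 to 1.05, and RPKM sums were 467612 to 508319. On the scale log2(RPKM + 0.5), 26320 transcripts were fitted with limma 3.58.1 (R 4.3.3), with 1 mean per internode, a variance trend and Benjamini-Hochberg adjustment within each of 7 comparisons. The fit was tested on simulated data. Ratios were tested with scipy 1.17.1, and plots made with matplotlib 3.10.9.

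Libraries of Int1 and Int2 with the same number shared deviations from the internode means (r = 0.130, 0.104 and 0.137, against -0.129 to -0.003 for other numbers), so the replicate number was also fitted as a block. No other pair had all 3 values over 0.1. For Int1 and Int4, however, the values for the same number (0.0474 to 0.108) also lay above the highest for other numbers (0.0471). For Int2 and Int4 they were 0.221, 0.0448 and 0.235, against at most 0.0513 for other numbers. Each pair with Int3 had values for the same number below 0.

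Members and lists were chosen with earlier results of these data known. Named transcripts were those of the BRI loci, the 5 nearest of each, and, per list, the 3 called with the largest change and the most abundant by its highest internode mean, with exceptions stated. No photosystem and light reaction transcript was named. The locus names matched no entry of the RefSeq table used, so lists came from the study's functional categories, of which 770 transcripts were used, and no sequence was analysed. Alternatives were other pseudocounts, no filter, median-ratio scaling, a replicate block, locus sums, fits on the internodes compared and leaving out libraries.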

Additional observations from a re-analysis of the deposited data

How the results depend on the processing

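The calls of the 3 BRI transcripts in Int3/4 against Int1/2 kept their side of the threshold in every alternative run, with log2 fold changes of -5.01 to -3.78 for Sobic.008G006800, -4.80 to -3.38 for Sobic.001G403200 and -4.11 to -3.36 for Sobic.005G005700, and no result reversed. Median-ratio scaling shifted the median of all tested transcripts by 0.15 in this comparison and by 0.26 in Int4 against Int1. Values near 0 may rest on few reads, and the pseudocount sets how large their change appears.

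A replicate block over the 12 libraries changed no BRI call. The fit on Int2 and Int3 alone with the replicate block gave log2 values of -3.65, -3.62 and -3.14 for Sobic.001G403200, Sobic.008G006800 and Sobic.005G005700 and limma adjusted p of 0.00254, 0.00254 and 0.00267, above the threshold of 0.001, and called 0 of all tested transcripts. The same fit also called 0 for Int2 against Int1 and 0 for Int4 against Int3, and 2499 in place of 4811 for Int3 against Int1.

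Over all tested transcripts, Int2 against Int1 gave 125 calls in either direction, 247 with locus sums, 818 at an adjusted p under 0.05, 0 with the compared internodes alone, and 30 to 223 on leaving out libraries. Int4 against Int3 gave 1080, with 115 for these internodes alone, 2068 at an adjusted p under 0.05 and 594 to 1106 on leaving out libraries. Int3 against Int2 gave 2403, and 1590 for these internodes alone. Without Int3 replicate 1 and Int4 replicate 3 together the first of these counts was 78 and the second 667. This alternative and the block on the compared internodes were chosen after seeing the data.

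The methylsterol monooxygenase counts (2 higher, 1 lower) were 0 and 0 with a pseudocount of 1, 1 higher with locus sums, 0 lower with scaling, and 0 to 2 higher and 0 to 1 lower on leaving out libraries. Of the 5 nearest transcripts, pseudocounts of 0.1 and 1 and Spearman's rho kept 2, 3 and 0 for Sobic.001G403200, 3, 2 and 0 for Sobic.008G006800, and 2, 4 and 1 for Sobic.005G005700. The causes of these changes were not tested.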
